A study of Mus musculus with 12 samples.

Results

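The 10 genes described here are 5 pairs of neighbours that lie on opposite strands of the mouse genome and meet at their 3′ ends, namely Hmgxb3 with Csf1r, Nt5dc2 with Stab1, Ccdc152 with Selenop, Focad with Hacd4, and 9130019P16Rik with Chn2. They were chosen by symbol, with earlier results of these data known, because counts on the first symbol of each pair were lower in M1-like than in resting cells. All 10 are among the 24552 symbols of the deposited count table. The sequenced RNA came from macrophages grown out of mouse bone marrow progenitors over 6 days in M-CSF at 10 ng/ml. The 4 groups had 3 libraries each. Cells of vehicle M0 and vehicle M1 received DMSO, and those of ISRIB M0 and ISRIB M1 received 50 nM ISRIB, a compound that blocks the integrated stress response through eIF2B. Cells of all 4 groups were pre-treated for 1 h, and M1 cells were then given LPS at 10 ng/ml with IFN-γ at 25 ng/ml for 16 h. What M0 cells were given during those 16 h is not written in the labels, which also name no strain, age or animal. Libraries are called biological replicates without saying whether they came from separate mice, so the errors below measure the spread between these libraries.

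Macrophages of this kind depend on M-CSF, whose receptor is the tyrosine kinase encoded by Csf1r. Resting and tissue-repair macrophages are known for endocytic scavenger receptors such as stabilin-1 (Stab1) and for secreting carriers such as selenoprotein P (Selenop), which delivers selenium to other cells. Hacd4 encodes a dehydratase of the very-long-chain fatty acid elongation cycle, and Chn2 encodes β2-chimaerin, which switches off the GTPase Rac. Of the opposite-strand neighbours, Focad encodes focadhesin, a focal adhesion protein, Nt5dc2 encodes a protein with a 5′-nucleotidase domain, Hmgxb3 one with an HMG box, and Ccdc152 one with a coiled coil. 9130019P16Rik is annotated as a non-coding processed transcript. When 2 genes overlap on opposite strands, a read from the shared stretch can be given to either, depending on whether and how strand is used in counting. The libraries were strand-specific, HTSeq is named in the submitters' processing notes, and its strand setting is not given in the sources used here, so the strand of the transcript behind a count on any symbol is not known. Levels below are those of counts given to a symbol. Of 24030 symbols matched to GENCODE M21, 24.1% have exons that overlap an exon on the opposite strand, and these held 92.3% of the counts of all matched symbols. The part of strand assignment in the results was not tested.

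The genes of each pair run towards each other and share exon sequence near their 3′ ends (GENCODE M21, GRCm38, the mm10 build). Csf1r on the plus strand (chromosome 18, 61100598 to 61132149) and Hmgxb3 on the minus strand (61131277 to 61177050) share 873 bases, annotated as UTR in both with 7 of them also coding in Hmgxb3, which are 15.1% of the exon bases of Csf1r and 8.03% of those of Hmgxb3. Stab1 on the minus strand (chromosome 14, 31139013 to 31168641) and Nt5dc2 on the plus strand (31131053 to 31139124) share only 112 bases, all of them UTR of Stab1, with 27 coding bases of Nt5dc2 among them. Selenop on the plus strand (chromosome 15, 3268547 to 3280508) and Ccdc152 on the minus strand (3280070 to 3303526) share 439 bases, UTR in both, which are 15.4% of the exon bases of Selenop and 32.3% of those of Ccdc152. Hacd4 on the minus strand (chromosome 4, 88396144 to 88438928) and Focad on the plus strand (88094629 to 88411011) share 746 exon bases in 3 blocks, all UTR of Hacd4 and 422 of them coding in Focad. Chn2 on the plus strand (chromosome 6, 54039554 to 54301810) and 9130019P16Rik on the minus strand (54269681 to 54430221) share 552 exon bases in 2 blocks, all of them UTR of Chn2. 9130019P16Rik also overlaps exons of Prr15 by 278 bases and of Wipf3 by 258 bases, and Chn2 overlaps those of Gm15527 by 65. Prr15 had at most 4 counts in a library and Wipf3 had 0 in all 12, and Gm15527 was not analysed here.

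**Figure D1:**
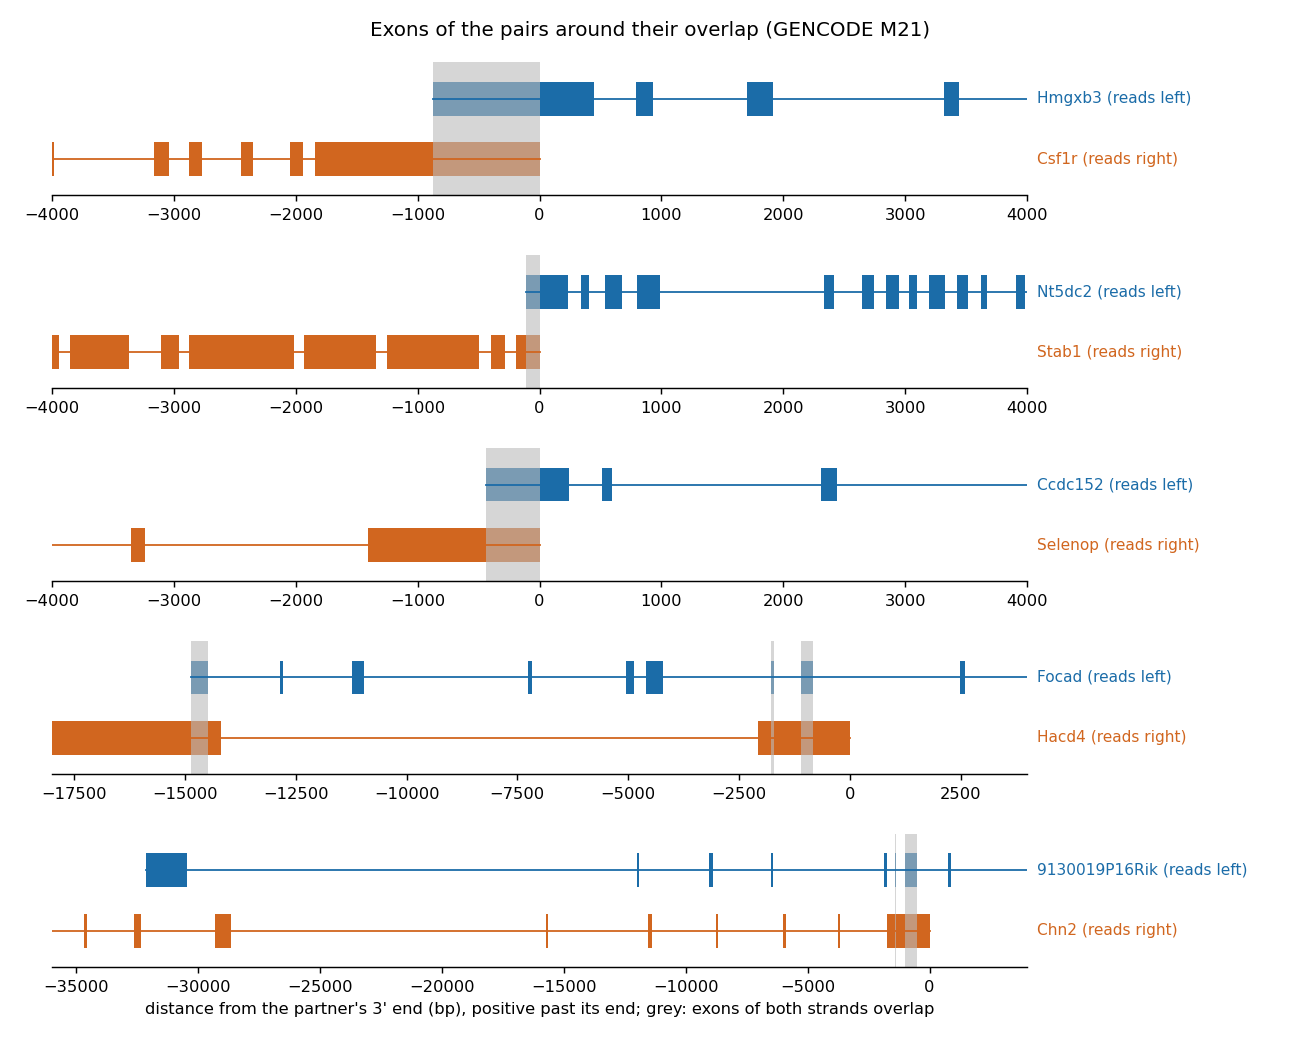
Merged exons of each pair drawn to scale against the distance in bases from the 3′ end of the partner gene, with the first-named gene of the pair in blue, its partner in orange and exon sequence shared by both strands in grey. The shared stretch is a single block in the 3 upper pairs, from 112 bases for Nt5dc2 and Stab1 to 873 for Hmgxb3 and Csf1r, and is split into 3 and 2 blocks in the lower pairs.

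Short stretches of the shared exons show what a read there looks like on either strand. The 30 bases of Nt5dc2 at chr14:31139013-31139042 (plus strand) end its reading frame, with the stop codon in capitals, and the same bases read on the minus strand lie in UTR of Stab1. The 30 bases of Focad at chr4:88396975-88397004 (plus strand) are coding, and their minus-strand reading lies in UTR of Hacd4. The sequences are from the GENCODE M21 transcripts and are written 5′ to 3′.
Nt5dc2 strand: tttcttggtgacatggcccacatccgcTGA
Stab1 strand: TCAgcggatgtgggccatgtcaccaagaaa
Focad strand: ctgaatatcaagaaatacctcctggtatcc
Hacd4 strand: ggataccaggaggtatttcttgatattcag

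The first question was how counts on each symbol differed between resting and M1-like cells. Over all 5 pairs the first-named symbol held more counts than its partner in M0, and its level in M1 was a small part of that in M0, with and without ISRIB. In vehicle the level left in M1 was 1.38% for Ccdc152, 1.42% for 9130019P16Rik, 5.71% for Hmgxb3, 11.3% for Nt5dc2 and 14.7% for Focad. The partners with enough counts to be tested kept more, with 23.8% for Selenop, 40.1% for Csf1r and 75.0% for Stab1. Levels are CPM, counts scaled to library size and TMM factor, in which 1 count was worth 1.79 to 2.57 CPM and the floor of 3 counts was 5.37 to 7.71 CPM. These differences chose the genes, so they are given as a description. Log2 fold changes come from edgeR's quasi-likelihood fit with SE. In bulk RNA, fewer cells of a type and less RNA per cell cannot be told apart.

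In M0, counts on Hmgxb3 were far above those on Csf1r. Hmgxb3 was at 2062, 2192 and 2168 CPM in vehicle M0 and at 155, 74.5 and 137 in vehicle M1. With ISRIB it was at 1945, 1996 and 1871 CPM in M0 and 165, 144 and 131 in M1. All 6 M1 libraries lay below all 6 M0 libraries, and the log2 fold change was -4.12 ± 0.18 (SE) in vehicle and -3.72 ± 0.17 in ISRIB. Csf1r, the M-CSF receptor, was at 132, 122 and 70.9 CPM in vehicle M0 and 35.1, 20.6 and 74.5 in vehicle M1. The highest vehicle M1 library, replicate 3, lay above the lowest vehicle M0 library, also replicate 3, so these groups overlapped. With ISRIB Csf1r was at 74.9, 91.0 and 80.5 CPM in M0 and at 29.997, 35.9 and 56.2 in M1, which did not overlap. Its log2 fold change was -1.31 ± 0.43 in vehicle and -1.01 ± 0.43 in ISRIB. Per kb of exon, the level in vehicle M0 was 197 ± 6.36 CPM (SD, n = 3) for Hmgxb3 and 18.7 ± 5.63 for Csf1r, and in vehicle M1 it was 11.3 ± 3.896 and 7.51 ± 4.84. The levels per kb thus stood apart in M0 and lay within their spread of each other in M1.

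Stab1, the scavenger receptor, was the most counted of the partner symbols. It was at 1614, 988 and 1293 CPM in vehicle M0 and at 819, 930 and 1173 in vehicle M1. With ISRIB it was at 1589, 1082 and 1176 CPM in M0 and 1027, 945 and 1054 in M1. The vehicle groups overlapped, since replicate 3 of vehicle M1 lay above replicate 2 of vehicle M0, and the ISRIB groups came close without overlapping. The log2 fold change was -0.41 ± 0.17 (SE) in vehicle and -0.35 ± 0.17 in ISRIB. Without replicate 1 of vehicle M0, the highest Stab1 library, it was -0.21 in vehicle. Nt5dc2, whose last exon meets that of Stab1, was at 3391, 3361 and 3917 CPM in vehicle M0 and at 353, 406 and 442 in vehicle M1. With ISRIB its levels were 3084, 3376 and 3396 CPM in M0 and 417, 436 and 398 in M1. Nt5dc2 was far lower in every M1 library than in any M0 library, with a log2 fold change of -3.15 ± 0.12 in vehicle and -2.98 ± 0.12 in ISRIB. Per kb of exon the vehicle M0 level was 1495 ± 132 CPM (SD, n = 3) for Nt5dc2 and 126 ± 30.4 for Stab1, and the vehicle M1 levels were 168 ± 18.9 and 94.7 ± 17.6.

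Selenop, the selenium carrier, and Ccdc152 were counted at lower levels. Ccdc152 had 86, 92 and 115 counts in vehicle M0 and 0, 3 and 0 in vehicle M1. In ISRIB M0 it had 87, 124 and 103 counts, and in ISRIB M1 0, 4 and 2. Ccdc152 was thus nearly absent from the M1 libraries. All vehicle M1 counts of Ccdc152 came from replicate 2, and without it none was left. Over the 3 vehicle libraries the M0 level was 73.9 times that in M1, with a 95% counting interval of 25.0 to 360.4 that covers counting error only. With ISRIB the ratio was 42.6, with an interval of 19.3 to 117. Selenop had 42, 33 and 19 counts in vehicle M0 and 0, 5 and 12 in vehicle M1. With ISRIB the Selenop counts were 17, 33 and 20 in M0 and 1, 10 and 2 in M1. No M1 library reached the lowest M0 library of the same treatment in CPM, but vehicle M1 ran from no counts to 28.8 CPM, against 38.5 CPM in the lowest vehicle M0 library. The Selenop log2 fold change was -2.04 ± 0.74 (SE) in vehicle and -2.11 ± 0.77 in ISRIB. Per kb of exon, vehicle M0 was at 137 ± 30.3 CPM (SD, n = 3) for Ccdc152 and 20.6 ± 6.92 for Selenop.

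Hacd4 and Chn2 were at or near the floor while their neighbours were well counted. Focad had the highest counts of the 10 symbols, at 4019, 3636 and 3937 CPM in vehicle M0 and 591, 491 and 627 in vehicle M1. In ISRIB M0 it was at 4237, 4321 and 4866 CPM and in ISRIB M1 at 610, 707 and 766. The Focad groups of M0 and M1 were far apart, with a log2 fold change of -2.76 ± 0.12 (SE) in vehicle and -2.69 ± 0.12 in ISRIB. Hacd4 had 4, 4 and 0 counts in vehicle M0, 2, 0 and 2 in vehicle M1, 0, 0 and 2 in ISRIB M0 and 0 in all 3 ISRIB M1 libraries. No difference was detectable for Hacd4 at this depth. The non-coding 9130019P16Rik had 221, 220 and 213 counts in vehicle M0 and 5, 1 and 1 in vehicle M1. Under ISRIB its counts were 163, 225 and 235 in M0 and 8, 6 and 8 in M1. The M0 level was 70.7 times the M1 level in vehicle (95% counting interval 34.1 to 176) and 23.0 times in ISRIB (15.1 to 37.0). The vehicle log2 fold change of 9130019P16Rik was -6.08 ± 0.37 and moved to -7.22 without replicate 1 of vehicle M1, which held 5 of the 7 counts. Chn2 had counts in 2 of the 12 libraries, 4 and 1 in replicates 2 and 3 of vehicle M0, and 0 in every other library.

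**Figure D2:**
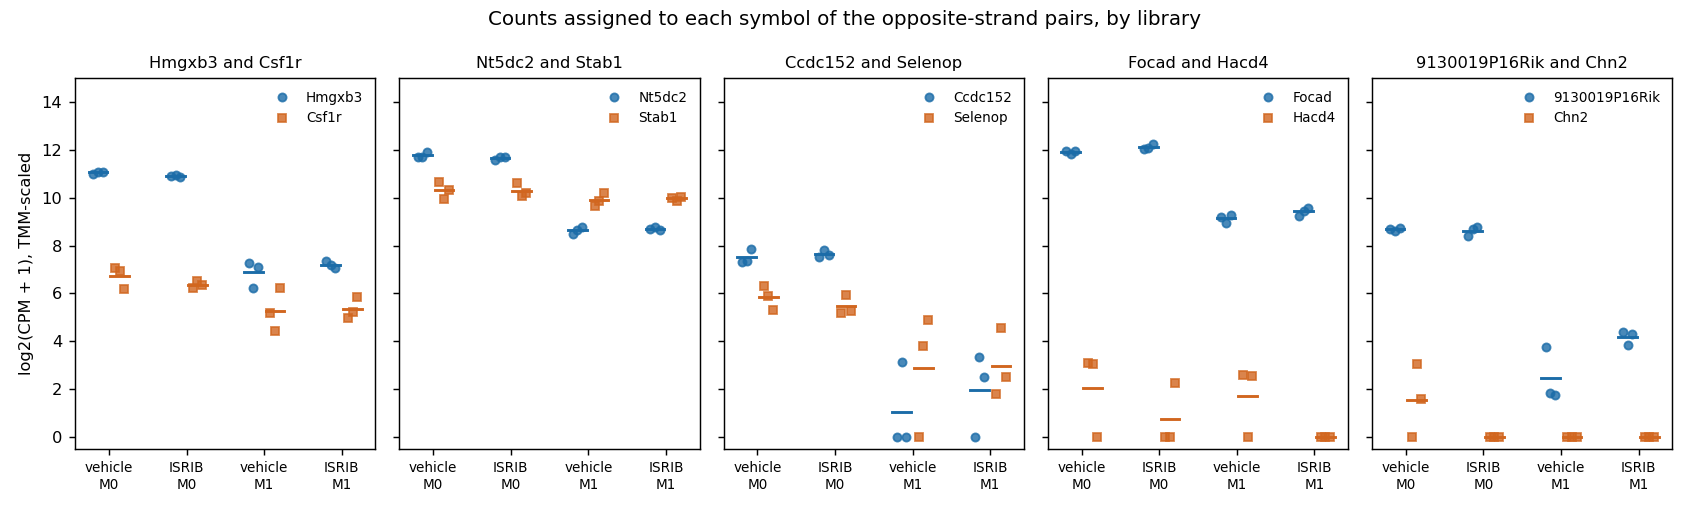
Levels of the 10 symbols as log2(CPM + 1) in the 12 libraries, with 1 point a library, a bar for the mean of each group, blue for the first-named symbol of a pair and orange for its partner. Blue points drop from M0 to M1 in each panel, while Stab1 stays near its M0 level and Hacd4 and Chn2 lie at 0 to 4 counts throughout.

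Of the 10 symbols, 8 had enough counts to be tested and Hacd4 and Chn2 did not. At an adjusted p of 0.05 (edgeR quasi-likelihood, Benjamini-Hochberg over 2356 symbols), 8 of the 8 were called lower in vehicle M1 than in vehicle M0. Of all tested symbols 20.5% were called lower, 24.3% higher and 44.8% either way. In ISRIB 6 of the 8 were called lower and Csf1r and Stab1 were not, and of all tested symbols 20.9% were called lower, 23.9% higher and 44.8% either way. The vehicle call of Stab1 held in 8 of 22 other settings, and those of Csf1r and Selenop were lost without replicate 1 or 2 of vehicle M0 or of vehicle M1. Every vehicle M1 library lay below every vehicle M0 library for 6 of the 8, against 25.0% of all tested symbols, and in ISRIB this held for 8 of 8, against 26.4%. The genes were picked for this contrast, and several passed the filter on low counts only through their M0 libraries, so nothing is read from these counts. The median log2 fold change of the 8 was -2.95 in vehicle and -2.83 in ISRIB, beside 0.01 and -0.01 over all tested symbols. Vehicle and ISRIB changes were computed from separate libraries. The median over all symbols moved to -0.29 in vehicle when libraries were scaled to total counts, and the direction of all 8 members stayed the same.

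How a pair's counts were split between its symbols comes from the same contrast and is given as a description. The share of the Nt5dc2 and Stab1 counts that fell on Stab1 was 26.6% ± 5.01 (SD, n = 3) in vehicle M0 and 28.001% ± 5.25 in ISRIB M0. In M1 it was 70.7% ± 1.67 in vehicle and 70.7% ± 2.09 in ISRIB, so the symbol with more counts in the pair changed from Nt5dc2 to Stab1. Single libraries ran from 22.7% (95% Clopper-Pearson interval 21.1 to 24.4) to 34.001% (32.0 to 36.002) in M0 and from 68.5% (64.6 to 72.1) to 72.6% (69.1 to 76.0) in M1. The M0 libraries differed among themselves by more than counting error, and the M0 and M1 ranges did not overlap.

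The Csf1r share of the Hmgxb3 and Csf1r counts was 4.81% ± 1.47 (SD, n = 3) in vehicle M0 and 4.06% ± 0.33 in ISRIB M0, and 25.1% ± 8.92 and 21.8% ± 7.47 in the M1 groups. Hmgxb3 kept more counts than Csf1r in all 12 libraries. The Selenop share of the Ccdc152 and Selenop counts was 24.5% ± 9.47 (SD, n = 3) in vehicle M0 and 17.9% ± 2.72 in ISRIB M0. Pooled over the 3 libraries it was 85.0% in vehicle M1, from 20 counts (95% Clopper-Pearson interval 62.1 to 96.8), and 68.4% in ISRIB M1, from 19 counts (43.4 to 87.4). In replicate 1 of vehicle M1 neither symbol had a count. Hacd4 took at most 0.840% of a pair's counts in any library and Chn2 at most 1.79%. Members of a pair were thus lower in M1 by different factors, and the sum of a pair was lower by less than its first-named symbol in the 3 pairs with a counted partner. For Nt5dc2 with Stab1 the summed counts had a log2 fold change of -1.82 ± 0.12 (SE) in vehicle, for Hmgxb3 with Csf1r -3.76 ± 0.18, and for Ccdc152 with Selenop -3.86 ± 0.50. The Clopper-Pearson intervals of the shares cover counting error only, and reads had no molecular identifiers to set duplicates apart.

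**Figure D3:**
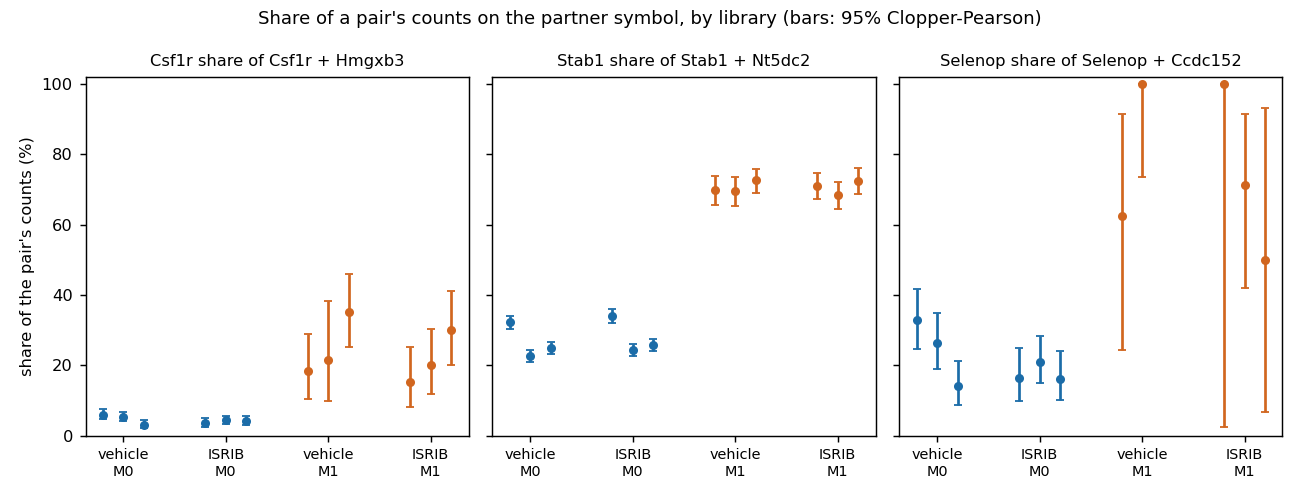
Percent of a pair's counts that fell on Csf1r, Stab1 or Selenop in each library, with 95% Clopper-Pearson intervals, M0 in blue and M1 in orange. Stab1 lies between 22.7% and 34.001% in M0 and between 68.5% and 72.6% in M1, and the Selenop intervals in M1 are wide because few counts remain.

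The next comparison asked whether ISRIB changed these counts, a contrast that did not choose the genes. In M1 cells 0 of the 8 tested symbols and 0% of all 2356 passed the same edgeR threshold. DESeq2 and limma-voom also called 0 of all symbols. An unadjusted edgeR p under 0.05 was seen for 2 of the 8 beside 134 of all tested symbols. These were 9130019P16Rik and Focad. The log2 difference between ISRIB M1 and vehicle M1 was 1.53 ± 0.54 (SE) for 9130019P16Rik, with a 95% interval of 0.41 to 2.65 and an edgeR p-value of 0.00939 that became 0.806 after Benjamini-Hochberg adjustment over all tested symbols. It rests on 7 counts in vehicle M1 and 22 in ISRIB M1. Without replicate 1 of vehicle M1 the difference was 2.68, and without replicate 3 of that group 1.16, and neither passed. The libraries of these groups did not overlap for 9130019P16Rik, which held for 11.6% of all tested symbols in either direction. Focad was higher in ISRIB M1 by 0.28 ± 0.12 on the log2 scale, with an edgeR p-value of 0.0310 and an adjusted p of 0.806, and its groups overlapped. For Hmgxb3 the 95% interval ran from -0.15 to 0.66, for Nt5dc2 from -0.20 to 0.32 and for Stab1 from -0.30 to 0.40. The intervals of Csf1r (-1.04 to 0.84), Selenop (-2.22 to 1.29) and Ccdc152 (-1.26 to 2.95) leave room for changes of over 1 log2 unit.

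In M0 cells 0 of the 8 and 0% of all tested symbols passed with edgeR, while DESeq2 called 3 and limma-voom 1 of all symbols, no member among them. An unadjusted edgeR p under 0.05 was seen for 0 of the 8 and 143 of all. Focad had the lowest p-value of the 8, 0.0714 with edgeR and 0.845 after Benjamini-Hochberg adjustment, with a log2 difference of 0.21 ± 0.11 (SE) between ISRIB M0 and vehicle M0. Its ISRIB M0 libraries were all above its vehicle M0 libraries, and those of Hmgxb3 were all below. Such groups without overlap made up 11.3% of all tested symbols. The 95% interval of the log2 difference was -0.44 to 0.15 for Hmgxb3, -0.34 to 0.11 for Nt5dc2, -0.36 to 0.32 for Stab1 and -1.22 to 0.43 for Csf1r. For 9130019P16Rik it was -0.50 to 0.39, for Ccdc152 -0.61 to 0.83 and for Selenop -1.76 to 0.96. The well-counted symbols thus had intervals within 0.5 log2 units of 0 in M0, and those of Csf1r, Ccdc152 and Selenop were wider.

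The interaction tested whether ISRIB acted differently on M1 and on M0 cells, and 0 of the 8 and 0% of all tested symbols passed with edgeR, as did 0 with DESeq2 and 0 with limma-voom. An unadjusted p under 0.05 was seen for 1 of the 8 and 167 of all. That symbol was 9130019P16Rik, with an interaction of 1.59 ± 0.59 (SE) on the log2 scale, an edgeR p-value of 0.0122 and an adjusted p of 0.505. With a library left out its interaction ran from 1.20 without replicate 3 of vehicle M1 to 2.72 without replicate 1, and did not pass. The other 7 had adjusted p-values of 0.767 or more by edgeR with Benjamini-Hochberg adjustment.

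**Figure D4:**
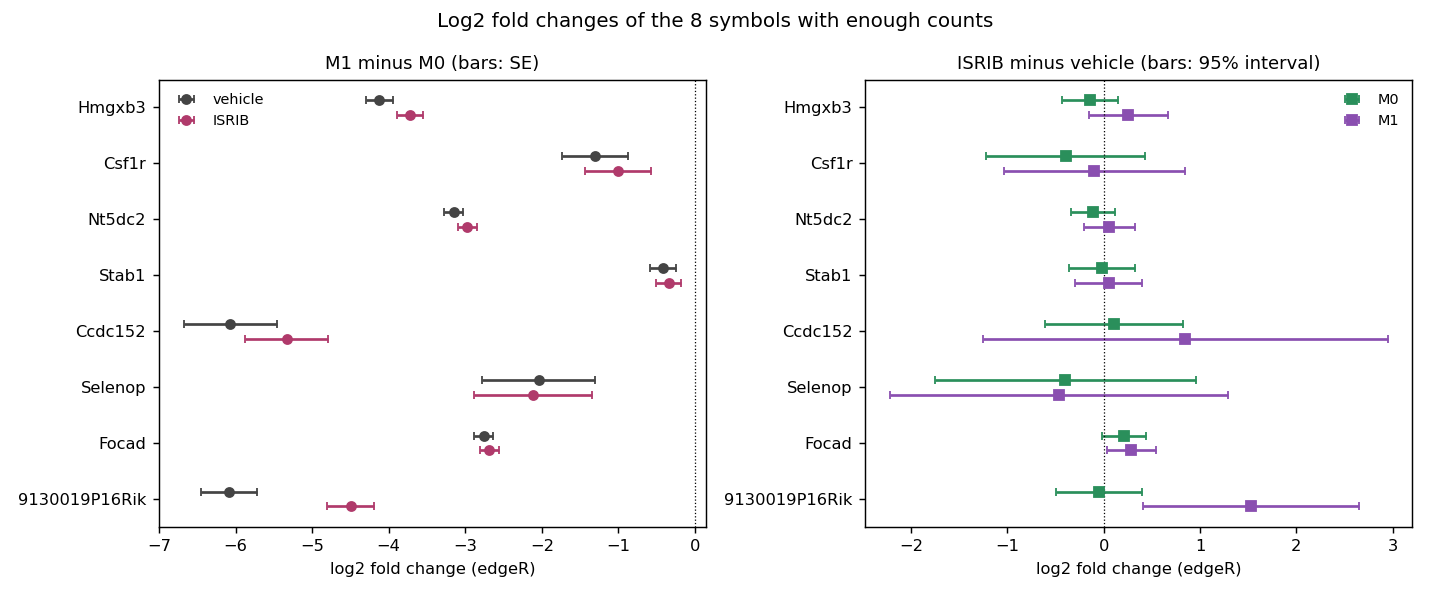
Log2 fold changes from the edgeR fit for the 8 tested symbols, with M1 minus M0 on the left (bars are SE) and ISRIB minus vehicle on the right (bars are 95% intervals). On the left each symbol lies below 0, from -0.35 for Stab1 in ISRIB to -6.08 for 9130019P16Rik in vehicle, and on the right 14 of 16 intervals include 0.

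Other genes of the same pathways were read from lists, and the 10 pair members were left out of the counts of listed genes given here. Beside each count stand 20.5% called lower and 24.3% called higher of all tested symbols in vehicle, and 20.9% and 23.9% in ISRIB (edgeR, Benjamini-Hochberg). The lists were chosen with earlier results of these data known. Some listed genes passed the filter on low counts only through the group where they were high. The list counts of M1 against M0 are therefore a description, and nothing is read from them. Of 31 other resting macrophage genes 8 could be tested, and 5 were called lower and 0 higher in vehicle and again 5 and 0 in ISRIB. Their median log2 fold change was -1.39 in vehicle and -1.26 in ISRIB, beside 0.01 and -0.01 over all tested symbols. Besides Cd163, the haemoglobin scavenger receptor, the called genes included Pltp and Apoe, which carry lipids. C1qb, C1qc and Maf were tested and not called in either treatment. The log2 fold change of C1qb was above 0, at 0.68 ± 0.58 (SE) in vehicle and 1.38 ± 0.58 in ISRIB. That of C1qc was -1.09 in vehicle and 0.05 in ISRIB, and that of Maf -0.96 and -0.51. Pltp had a mean of 5690.4 CPM ± 291 (SD, n = 3) in vehicle M0 and 1834 ± 76.8 in vehicle M1, which was -1.63 ± 0.10 (SE) as a log2 fold change. Apoe had 504 ± 81.7 and 227 ± 52.3 CPM, or -1.15 ± 0.20 on the log2 scale. Ctsa, the opposite-strand neighbour of Pltp, was also called lower in both, with a vehicle log2 fold change of -1.88 ± 0.18.

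The M-CSF receptor pathway had 22 other listed genes, of which 5 could be tested. In vehicle M1 2 were called lower and 2 higher, and in ISRIB 1 was lower and 1 higher. Lyn, a Src-family kinase, rose by 2.09 ± 0.34 (SE) on the log2 scale, with means of 49.8 CPM ± 15.8 (SD, n = 3) in vehicle M0 and 214 ± 35.8 in vehicle M1. Adam17, the protease that sheds cell-surface receptors, fell by 0.64 ± 0.22 (271 ± 33.1 and 174 ± 13.2 CPM) and did not pass in ISRIB. The called genes of this pathway thus moved in both directions. Among 16 other scavenger and endocytic receptors 8 could be tested, with 2 lower and 2 higher in vehicle and 2 lower and 3 higher in ISRIB.

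Of 22 other selenoprotein and selenium genes 4 could be tested, and 2 were called lower and 0 higher in vehicle, against 1 and 0 in ISRIB. Txnrd2, a mitochondrial thioredoxin reductase, fell by 1.15 ± 0.33 (SE) on the log2 scale in vehicle, and Selenoo fell by 0.42 ± 0.15. Tubgcp6, the opposite-strand neighbour of Selenoo, had a log2 fold change of -0.15 ± 0.13 and did not pass. Of 19 other Rac GTPases and regulators 6 could be tested, with 2 higher and 1 lower in vehicle and 1 higher and 0 lower in ISRIB. Arhgap15os, which overlaps the Rac regulator Arhgap15, was called lower in both, with a log2 fold change of -1.16 ± 0.19 in vehicle. Of 16 other fatty acid elongation genes only Hacd3 and Acsl1 could be tested, and Acsl1 was called higher, from 0 counts in each vehicle M0 library to 6 to 12 in vehicle M1. In both ISRIB contrasts and the interaction 0 genes of these lists passed.

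Symbols with the most similar pattern were found among 830 other tested symbols with a mean of at least 50 counts, by Pearson r of log2 CPM over the 12 libraries. Fdft1, which encodes squalene synthase, and Card14 were the closest to both Hmgxb3 (r = 0.994 for each) and Nt5dc2 (0.995 for Fdft1 and 0.996 for Card14). Atg7, an autophagy gene, and Slc31a2, which encodes a copper transporter, were the closest to Ccdc152, with r = 0.988 and 0.987. Gm15471 and Gm16982 were the closest to Focad, both at 0.994, and Gm15471 (0.986) and Fdft1 (0.982) to 9130019P16Rik. Fdft1 has an annotated exon overlap on the opposite strand with Ctsb, Card14 with Sgsh, Gm15471 with Dclre1b and Gm16982 with Ap2a2. Atg7 and Slc31a2 have none. The share with such an overlap among the 830 candidates was not computed, so nothing is read from these overlaps. All r values carry the difference between M0 and M1, and points share library depth and scaling. Among the members, r was 0.989 between Hmgxb3 and Nt5dc2, which lie on different chromosomes, and 0.820 between Hmgxb3 and Csf1r. It was 0.646 between Nt5dc2 and Stab1 and 0.819 between Ccdc152 and Selenop. Hacd4 and Chn2 have too few counts for such a value.

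Promoter sequence was read for 8 of the 10 genes, with 14 start sites from RefSeq (GRCm38.p6). The promoters of Csf1r and Hmgxb3 were not searched, so nothing is said of motifs there. The 250 bases before each start were searched on both strands for the core of PU.1, the myeloid factor, written GAGGAAGT, and for C/EBP (TTGCNNAA), AP-1 (TGANTCA), the STAT element GAS (TTCNNNGAA) and the E-box (CACGTG). These letters are in 2.44%, 9.56%, 6.75%, 7.02% and 6.02% of 32851 mouse promoters of that length. The PU.1 letters were found before 2 of the 3 starts of Selenop, at the same site, and 1 of the 4 starts of Chn2, inside the gene, the C/EBP letters before Ccdc152 and the GAS letters before 9130019P16Rik. The windows of Stab1, Hacd4, Focad and Nt5dc2 held none of these letters. The windows of Selenop (chr15:3270517-3270766, plus strand) and Chn2 (chr6:54268906-54269155, plus strand) follow with the PU.1 letters in capitals, which read as the reverse complement and begin at position -181 and -70 from the start, and that of Stab1 (chr14:31168642-31168891, minus strand) is given beside them without a match. A match is a description of letters and not a bound site.
Selenop: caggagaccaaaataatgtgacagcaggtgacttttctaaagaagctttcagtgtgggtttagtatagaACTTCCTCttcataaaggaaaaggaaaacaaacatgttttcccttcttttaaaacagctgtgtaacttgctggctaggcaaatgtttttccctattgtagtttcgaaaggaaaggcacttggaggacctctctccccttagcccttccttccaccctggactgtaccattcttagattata
Chn2: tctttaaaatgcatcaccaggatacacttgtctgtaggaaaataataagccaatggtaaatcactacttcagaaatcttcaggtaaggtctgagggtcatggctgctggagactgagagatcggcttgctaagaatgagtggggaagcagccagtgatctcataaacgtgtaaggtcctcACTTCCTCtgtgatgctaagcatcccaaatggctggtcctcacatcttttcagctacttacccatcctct
Stab1: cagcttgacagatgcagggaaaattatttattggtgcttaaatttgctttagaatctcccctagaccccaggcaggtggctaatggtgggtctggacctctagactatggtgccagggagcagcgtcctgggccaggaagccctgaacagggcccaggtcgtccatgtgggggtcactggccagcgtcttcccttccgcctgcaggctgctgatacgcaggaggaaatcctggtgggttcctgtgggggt

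The samples were checked against their label and for other cell types. Total counts ran from 439976 to 514037 a library. All 10 listed macrophage markers had counts, with a summed 242 to 499 in M0 libraries and 147 to 333 in M1 libraries, among them Csf1r. The 7 neutrophil markers summed to at most 4 counts, as did the B cell markers, those of mast cells or basophils to at most 2, and the listed T cell, NK cell, erythroid and fibroblast markers in the file had 0 in all 12 libraries. Single macrophage markers had means over the 12 libraries from only 2.75 counts for Mertk to 153 for Lyz2. At such depth, counts of 0 cannot show that other cells were absent. Of the 5 dendritic cell markers, Flt3, Zbtb46 and Cd209a had 0 counts throughout, and the summed level of the list, nearly all Xcr1, was 6 to 19 counts in M0 and 325 to 434 in M1. Its part in the results was not tested.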

How the data were processed

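Polyadenylated RNA of 12 mouse macrophage libraries (4 groups of 3) was measured, and sample titles gave group and replicate number. The authors deposited whole-number counts per symbol and a table of log2 values, and comparing both files showed each log2 value to be that of the count divided by a library factor, plus 1. FastQC, HTSeq, DESeq2 and mm10 are named in the submitters' processing notes. The aligner, strand setting and annotation are not given in the sources used here.

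The count analysis used edgeR 4.0.16 under R 4.3.3 (filterByExpr, minimum count 10 and total 15, 2356 symbols with 97.6% of counts, TMM, a mean per group over all 12 libraries, quasi-likelihood test, Benjamini-Hochberg at 0.05). The script was tested on simulated data. SE is that implied by the test statistic, and intervals are at 95%. Exon overlaps were computed from GENCODE M21. Members and lists were chosen with earlier results of these data known. Named were all members, their annotated overlap partners, up to 4 called genes of each list whose mean count was 50 or more, and the 2 symbols most correlated with each first-named member. Outside this rule C1qb, C1qc, Maf, Hacd3 and Acsl1 were named, and the list neighbours Ctsa, Tubgcp6 and Arhgap15os. Other called list genes with fewer counts, among them Folr2, Cx3cr1 and Cebpa, were left out of the text above. DESeq2 1.42.0 and limma 3.58.1 served as alternatives, beside other scalings and filters, summed pairs, a replicate block, and leaving out each library. Scaling to total counts was added after the data were seen. No library duplicated another.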

Additional observations from a re-analysis of the deposited data

How the results depend on the processing

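Results were recomputed under 11 other settings and with each of the 12 libraries left out. The direction of M1 against M0 was kept for all 8 tested symbols in each of these. Hmgxb3, Nt5dc2, Focad, Ccdc152 and 9130019P16Rik were called in all settings, in vehicle and in ISRIB, where with summed pairs the call is that of the sum. These symbols were chosen for this contrast, so their calls are a description and nothing is read from them. Stab1 in vehicle was past the threshold in 8 of 22 settings, with adjusted p-values (edgeR, DESeq2 or limma, Benjamini-Hochberg) from 0.000735 to 0.368, and a log2 fold change of -0.21 to -0.57 with a library left out. Csf1r in vehicle (-0.97 to -1.94) and Selenop in vehicle (-1.46 to -3.13) each lost the call in 4 of 21 settings, without replicate 1 or 2 of vehicle M0 or of vehicle M1. In ISRIB Selenop (-1.69 to -3.51) lost it in 3, and Csf1r gained it in 4 and Stab1 in 1. With summed pairs Nt5dc2 with Stab1 gave -1.82 in vehicle and -1.68 in ISRIB, and Ccdc152 with Selenop -3.86 and -4.02. In vehicle Ccdc152 ran from -5.50 to -9.46 with a library left out, the latter a fitted value against libraries with no count and so no bound, and 9130019P16Rik from -5.70 to -7.22. The cause was not tested.

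Of all tested symbols, 530 (vehicle) and 523 (ISRIB) passed with a minimum mean of 50 counts, where fewer were tested, against 1055 in each. Scaling to total counts gave 461 higher and 655 lower in vehicle, against 572 and 483, and 436 and 672 in ISRIB, against 563 and 492. ISRIB against vehicle in M0 gave 3 calls with DESeq2, 1 with limma-voom, 10 without a filter and 0 to 6 with a library left out (6 and 2 without replicates 1 and 2 of ISRIB M0). In M1 it gave 0 to 1 with a library left out (1 without replicate 2 of ISRIB M1). The interaction gave 9 without a filter, 3 with the replicate block and 0 to 4 with a library left out (4 and 1 without replicates 1 and 2 of ISRIB M0). No member was among the calls of the ISRIB contrasts or the interaction in any setting.

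With the replicate number as a block, 1047 symbols passed in vehicle, 1026 in ISRIB, and 0 in M0 and 0 in M1 for ISRIB against vehicle. The block changed no call of a member. Deviations of same-numbered libraries had correlations from -0.06 to 0.11 (mean 0.02), and those of other numbers a mean of -0.01. Counting error at this depth lowers such correlations, so they cannot show whether the numbers pair the libraries. The main fit left the libraries unpaired.

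Small ISRIB differences changed sign, and that of 9130019P16Rik did not. In M1 Csf1r was at 0.034 with limma-voom and 0.046 with limma on the deposited values, Selenop at 0.00087 with limma-voom, and Ccdc152 with Selenop summed at -0.16. With a library left out, M1 differences ran from 1.16 to 2.68 for 9130019P16Rik, -0.43 to 0.54 for Csf1r, -0.028 to 0.13 for Nt5dc2, -0.064 to 0.20 for Stab1, -0.033 to 4.24 for Ccdc152 and -1.87 to 0.63 for Selenop. In M0 they ran from -0.19 to 0.19 for Stab1 and -0.12 to 0.060 for 9130019P16Rik. The interaction of Selenop was 0.38 with limma-voom and 0.27 on the deposited values, and that of Ccdc152 with Selenop summed was -0.16. With a library left out it ran from -0.038 to 0.93 for Csf1r, -0.14 to 0.24 for Stab1, -0.15 to 4.12 for Ccdc152, -1.48 to 1.01 for Selenop and -0.031 to 0.15 for Focad. Shares within pairs were recomputed only from pooled counts and with a library left out. Pooled shares lay within the SD of the mean share. Leaving a library out cannot move a mean by as much as its SD, so nothing is read from those shifts. Depth limits Hacd4 and Chn2, which had too few counts to test, and Selenop and Ccdc152 in M1.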
